A study of Mus musculus with 6 samples.

Results

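The genes described are Trp53, which encodes the transcription factor p53, and 9 genes that p53 is known to switch on: Mdm2, Ccng1, Bax, Bbc3, Trp53inp1, Phlda3, Zmat3, Aen and Gadd45a. They were picked by gene name from an RNA-seq table of 54532 mouse genes. All 10 were in the table, and all 10 passed the filter of a mean of at least 0.5 FPKM (reads per kilobase of gene, scaled to the depth of the library, a level per length), which left 12681 genes for the test. The cells were MC3T3-E1, an established pre-osteoblast line from mouse calvaria. The samples fell into 2 groups of 3: cells in osteogenic medium (control replicates 1 to 3) and cells in the same medium with metformin (metformin replicates 1 to 3). Both groups were kept for 3 days in medium with β-glycerophosphate, ascorbic acid and dexamethasone, and metformin was present at 0.2 mM. Metformin is a glucose-lowering biguanide, and the study asked which genes it changes while osteoblasts differentiate. The methods call the replicates biological, and the labels do not say how the cultures were kept apart, so the p-values measure the spread between these samples.

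p53 is kept low in unstressed cells by MDM2, a ubiquitin ligase that marks it for destruction and is itself made from a p53 target gene. After DNA damage and other stresses p53 is modified, escapes MDM2 and binds response elements in its target genes, whose products stop the cell cycle, repair DNA, adjust metabolism or start cell death. In the osteoblast lineage p53 is known to restrain differentiation. Much of the control of p53 acts on the protein, which RNA levels do not show.

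The promoters are shown first, because the p53 response element is the sequence that the target genes are known for. The element is made of 2 half-sites of 10 bases. RefSeq promoter windows on GRCm38.p6, running from 250 bases before to 50 bases after a transcript start, were at hand for 8 of the 10 genes (11 windows). Both strands were searched with the p53 half-site and with the whole element, in which the half-sites touch. An exact half-site was found in 7 of the 11 windows, covering 6 genes, and in 8.36% of all 32851 windows. A whole element with at most 3 mismatches outside the 4 core bases was found in 5 of the 11 windows, covering 4 of the 8 genes, and in 1.38% of all windows. The Aen windows overlap and hold the same half-site and the same element, which the window counts include for each of them. Only the Ccng1 window held one with at most 2 mismatches, which 0.326% of all windows held. The matches are descriptions of letters and not of binding. The known elements of Mdm2 and Gadd45a lie in introns, outside these windows. The best element of each of the 4 genes is printed below 5′ to 3′ with the core C and G of each half-site in capitals. Ccng1 lies at chr11:40755462-40755481 on the minus strand, Aen at chr7:78895937-78895956, Bbc3 at chr7:16309486-16309505 and Trp53 at chr11:69580284-69580303, these 3 on the plus strand.
Ccng1: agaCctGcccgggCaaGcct
Aen: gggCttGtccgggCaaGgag
Bbc3: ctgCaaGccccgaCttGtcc
Trp53: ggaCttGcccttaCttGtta
The 250 bases before the start are printed for the gene with the closest element (Ccng1, chr11:40755287-40755536, minus strand) and for the gene that fell the most (Gadd45a, chr6:67037408-67037657, minus strand), with the exact half-site in capitals. The half-site of Gadd45a starts at position -40 from the RefSeq transcript start, and that of Ccng1 at position -185. RefSeq starts can differ from the ends of the gene spans given below. The half-site of Gadd45a (chr6:67037438-67037447) and the elements of Aen and Bbc3 lie inside those spans.
Ccng1 promoter: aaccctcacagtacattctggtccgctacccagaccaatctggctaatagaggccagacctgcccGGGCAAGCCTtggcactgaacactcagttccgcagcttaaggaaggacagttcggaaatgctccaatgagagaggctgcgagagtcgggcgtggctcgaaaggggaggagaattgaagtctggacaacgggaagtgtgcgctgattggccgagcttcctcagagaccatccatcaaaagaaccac
Gadd45a promoter: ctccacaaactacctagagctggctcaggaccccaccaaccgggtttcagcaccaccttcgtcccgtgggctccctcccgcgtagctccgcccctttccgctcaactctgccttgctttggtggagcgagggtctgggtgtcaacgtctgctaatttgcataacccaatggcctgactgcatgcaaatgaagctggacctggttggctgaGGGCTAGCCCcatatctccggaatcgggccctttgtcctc

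The libraries held 18399861 to 22111790 reads assigned to genes, and the 10 genes took between 211 and 19445 reads each per sample. One library stood apart: control replicate 1 correlated with the other controls at 0.960 and 0.952 over the tested genes (Pearson, log2 scale), whereas control replicates 2 and 3 correlated at 0.988 and the metformin replicates at 0.992. Its deviation from the other controls went with GC content, with a Spearman coefficient of -0.668 across 12663 genes that share the same libraries. The values of the 10 p53 genes and the counts of the other lists around p53 are therefore given with all 6 samples and without control replicate 1. The summed levels of the cell type markers are given with all 6 samples. All 10 osteoblast markers passed the filter, with a summed level of 10038 to 11798 FPKM in controls and 6840 to 7235 FPKM with metformin. Spp1 was the largest part of that sum and fell with Ibsp (log2 -1.50 and -1.60, adjusted p = 0.000471 and 0.000578). Col1a1, Col1a2 and Dlx5 rose (log2 0.93, 0.57 and 0.99, adjusted p = 0.0230, 0.00719 and 0.0246). Runx2, Sp7, Bglap, Bglap2 and Alpl were not called (log2 -0.18, 0.36, -0.28, -0.57 and -0.16, adjusted p = 0.243, 0.0586, 0.735, 0.175 and 0.412). Alpl was low (2.44 to 3.84 FPKM over the samples). In all, 3 of the 10 osteoblast markers rose and 2 fell, beside 13.2% and 9.28% of all tested genes. Of 6 markers each, 1 adipocyte, 3 chondrocyte, 1 muscle and 2 macrophage markers passed the filter. The summed levels in controls and with metformin were 1.77 to 3.10 and 2.09 to 2.46 FPKM for adipocyte, 27.6 to 41.6 and 29.9 to 32.4 FPKM for chondrocyte, 1.20 to 2.02 and 2.33 to 2.82 FPKM for muscle, and 15.3 to 26.0 and 27.1 to 30.9 FPKM for macrophage markers. Of the 2 macrophage markers tested, Cd68 fell (log2 -0.49, adjusted p = 0.0102) and Lyz2 was not called (log2 0.61, adjusted p = 0.0771). These calls used all 6 samples. Without control replicate 1, 1 macrophage marker was called higher and 1 lower. In that fit 2 chondrocyte markers were called lower, where 0 were called with all samples. Of the osteoblast markers it called 4 higher and 4 lower, adding Sp7 (higher), Bglap and Bglap2 (lower, adjusted p = 0.0225, 0.00280 and 0.0284). Over all tested genes the same fit called 23.5% higher and 20.4% lower. Cidec, Myod1, Myog and Itgam were listed at 0 in all 6 samples. In bulk samples a lower level in every cell and a smaller share of cells with the transcript cannot be told apart.

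With metformin, 2 of the 10 genes fell, Gadd45a and Trp53inp1, and none rose at an adjusted p under 0.05 (limma on log2(FPKM + 1), Benjamini-Hochberg over the 12681 genes). Over all tested genes 9.28% fell and 13.2% rose, beside 2 of 10 and 0 of 10 here. After correction for GC content 19.2% fell and 16.3% rose, beside 3 of 10 and 1 of 10. At an unadjusted p under 0.05, 1 gene was higher (Mdm2). Voom on the recovered reads called 1 gene higher (Mdm2) and 2 lower, where it called 14.0% and 9.75% of all genes higher and lower. The median log2 fold change of the 10 genes was 0.04, against 0.01 over all tested genes. Without control replicate 1 the count was 2 higher (Mdm2 and Ccng1) and 5 lower (Bax, Bbc3, Trp53inp1, Phlda3 and Gadd45a), with a median of -0.11, while 23.5% and 20.4% of 12667 genes were called higher and lower. Voom without that library gave the same counts, beside 25.5% and 22.7% of all genes. Trp53, Zmat3 and Aen were not called in either fit.

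**Figure D1:**
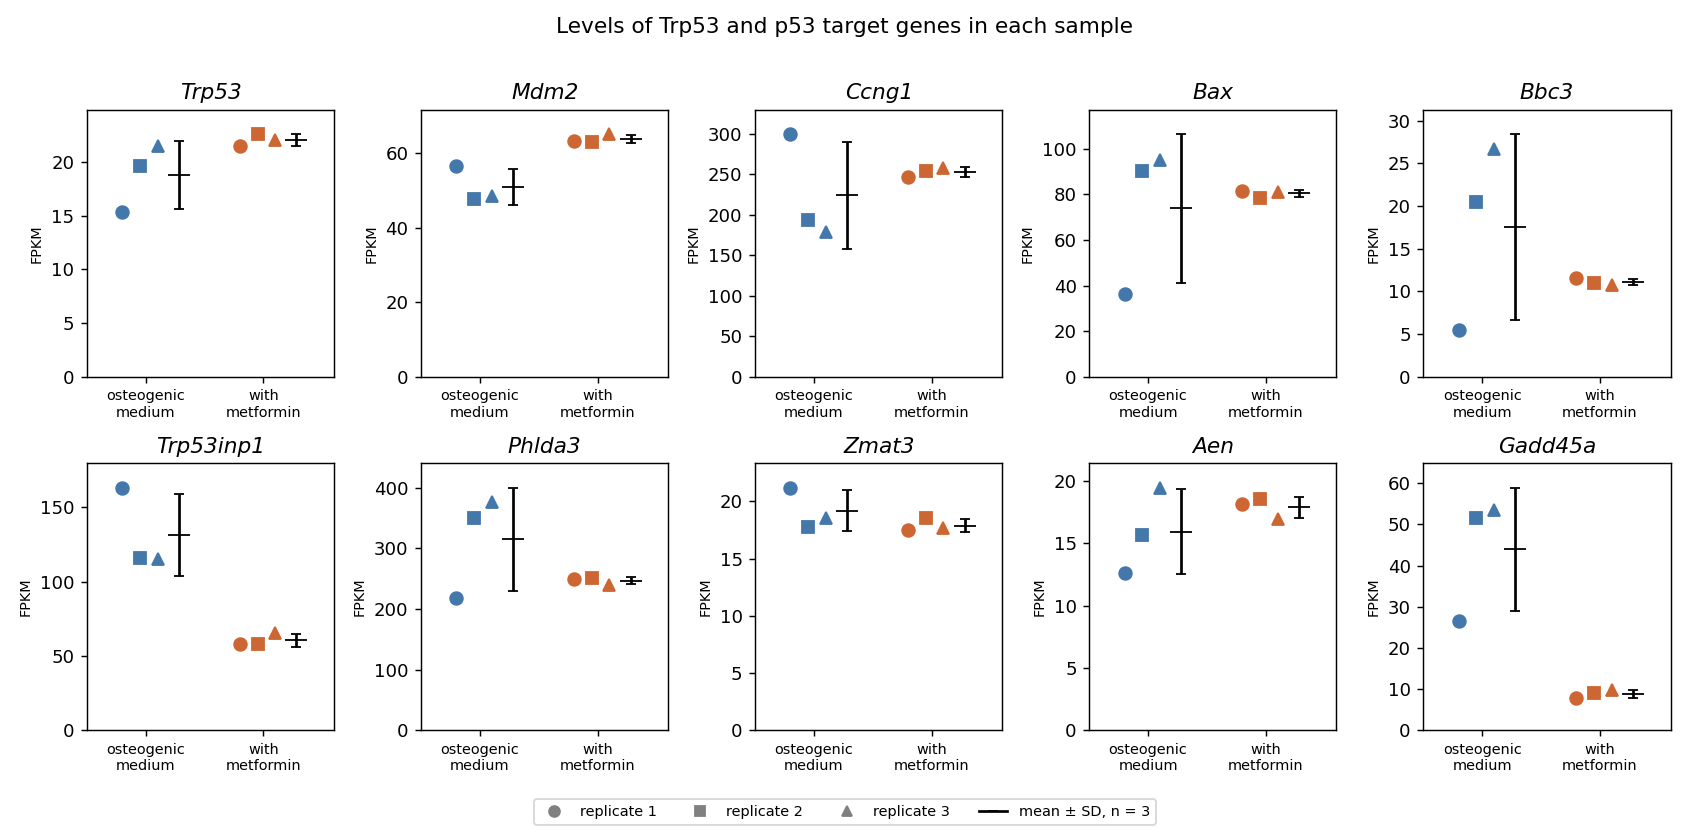
Level of each of the 10 genes in FPKM (y axis, from 0) in the 3 control and 3 metformin samples, with symbols for the replicates and the mean ± SD beside them. Gadd45a lies at 7.83 to 9.81 FPKM with metformin and at 26.6 FPKM or more in controls, and control replicate 1 lies apart from the other controls in most panels.

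Trp53 itself (ENSMUSG00000059552, chr11:69580359-69591873, plus strand) was not changed beyond the spread. Its levels were 15.3, 19.6 and 21.6 FPKM in the controls and 21.5, 22.6 and 22.1 FPKM with metformin. Control replicate 1 was the lowest of the 6, and the groups overlapped. The means were 18.8 ± 3.18 and 22.1 ± 0.541 FPKM (SD, n = 3 each), a log2 fold change of 0.23 (SE 0.13, 95% interval -0.08 to 0.54, adjusted p = 0.252). Without control replicate 1 it was 0.10 (interval -0.05 to 0.25, adjusted p = 0.246). A processed copy, Trp53-ps, is 97.7% identical to Trp53 over 353 bases, so that reads of the pair may be split. Trp53-ps was listed at 0.754 to 1.09 FPKM in controls and 1.37 to 1.91 FPKM with metformin, on 16 to 44 reads per sample. The tested genes whose 6 values ran most like those of Trp53 were Rbm15b and Enkd1, with root mean square distances of 0.024 and 0.027 on the log2(FPKM + 1) scale.

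Mdm2 (ENSMUSG00000020184, chr10:117688875-117710758, minus strand), which encodes the ligase that holds p53 down, was 56.6, 47.7 and 48.5 FPKM in the controls and 63.3, 63.0 and 65.0 FPKM with metformin. All 3 metformin samples were above all 3 controls, which 23.6% of all tested genes also showed. The means were 50.9 ± 4.91 and 63.8 ± 1.11 FPKM (SD, n = 3 each), 1.25-fold. The log2 fold change was 0.32 (SE 0.10, interval 0.10 to 0.55, adjusted p = 0.0540), just outside the threshold. Leaving out control replicate 1 gave 0.40 (interval 0.28 to 0.52, adjusted p = 0.00136), and after correction for GC content 0.25 (adjusted p = 0.0216).

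Ccng1 (ENSMUSG00000020326, chr11:40748552-40755311, minus strand) encodes cyclin G1, which recruits a phosphatase that acts on MDM2. It was 299, 193 and 179 FPKM in the controls and 246, 254 and 257 FPKM with metformin. Control replicate 1 was the highest of all 6 samples and the other controls were the lowest, so that the groups overlapped. With all samples the log2 fold change was 0.21 (SE 0.20, interval -0.26 to 0.68, adjusted p = 0.486). Leaving out control replicate 1 gave 0.44 (interval 0.28 to 0.60, adjusted p = 0.00242), and correction for GC content gave 0.22 (adjusted p = 0.168).

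Gadd45a (ENSMUSG00000036390, chr6:67035096-67037457, minus strand) changed the most of the 10. It encodes a stress sensor that binds PCNA, p21 and the kinase MEKK4 and takes part in growth arrest. Its levels were 26.6, 51.6 and 53.5 FPKM in the controls and 7.83, 9.00 and 9.81 FPKM with metformin. The groups did not overlap, and control replicate 1 lay between the other controls and the metformin samples. The means were 43.9 ± 15.0 and 8.88 ± 0.995 FPKM (SD, n = 3 each), 4.95-fold lower with metformin. The log2 fold change was -2.13 (SE 0.26, interval -2.76 to -1.49, adjusted p = 0.00216), and without control replicate 1 it was -2.44 (adjusted p = 1.3e-05). Gadd45a shares 337 exon bases with E230016M11Rik on the opposite strand, and without strand the reads of the pair cannot be told apart. E230016M11Rik was listed at 0.715 to 1.29 FPKM in controls and 0.358 to 0.494 FPKM with metformin.

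Trp53inp1 (ENSMUSG00000028211, chr4:11156431-11174379, plus strand) was the other gene that fell. Its product is a stress-induced nuclear and autophagy protein that helps to activate p53. It was 163, 116 and 115 FPKM in the controls and 58.2, 57.8 and 65.7 FPKM with metformin, and all metformin samples were below all controls, as in 20.5% of tested genes. The means were 131 ± 27.6 and 60.6 ± 4.44 FPKM (SD, n = 3 each), 2.17-fold lower. The log2 fold change was -1.09 (SE 0.16, interval -1.46 to -0.71, adjusted p = 0.00386), and without control replicate 1 it was -0.92 (adjusted p = 0.00018).

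For the 2 death genes of the BCL-2 family the call turned on control replicate 1. Bax (ENSMUSG00000003873, chr7:45461697-45466898, minus strand), which forms pores in the outer mitochondrial membrane, was 36.3, 90.3 and 94.9 FPKM in the controls and 81.6, 78.5 and 81.2 FPKM with metformin. The metformin values lay between control replicate 1 and the other controls. The log2 fold change was 0.24 (SE 0.35, interval -0.60 to 1.08, adjusted p = 0.668), and without control replicate 1 it turned to -0.20 (interval -0.34 to -0.07, adjusted p = 0.0270). With all samples and correction for GC content it was 0.13 (adjusted p = 0.531). Bax shares 192 exon bases with Gm45808 on its own strand, which was listed at 0 in all samples.

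Bbc3 (ENSMUSG00000002083, chr7:16308393-16318205, plus strand) encodes PUMA, which releases BAX from its inhibitors. It was 5.44, 20.4 and 26.7 FPKM in the controls and 11.5, 11.0 and 10.8 FPKM with metformin. Here too control replicate 1 was the lowest sample and the other controls the highest. With all samples the log2 fold change was -0.37 (SE 0.51, interval -1.58 to 0.84, adjusted p = 0.648). Leaving out control replicate 1 gave -1.01 (interval -1.27 to -0.75, adjusted p = 0.000687), and correction for GC content gave -0.49 (adjusted p = 0.206).

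Phlda3 (ENSMUSG00000041801, chr1:135766119-135769136, plus strand) encodes a pleckstrin-homology protein that competes with AKT for membrane lipids. It was 217, 349.7 and 377 FPKM in the controls and 249.7, 252 and 239 FPKM with metformin, so that control replicate 1 was again the lowest and the other controls the highest. The log2 fold change was -0.31 (SE 0.21, interval -0.81 to 0.19, adjusted p = 0.336). It was -0.56 without control replicate 1 (interval -0.72 to -0.39, adjusted p = 0.00105) and -0.41 after correction for GC content (adjusted p = 0.00432).

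The last 2 genes did not pass the test with or without control replicate 1. Zmat3 (ENSMUSG00000027663, chr3:32334792-32366014, minus strand), an RNA-binding zinc finger protein, was 21.2, 17.8 and 18.6 FPKM in the controls and 17.5, 18.6 and 17.7 FPKM with metformin. Its log2 fold change was -0.09 (SE 0.093, interval -0.31 to 0.13, adjusted p = 0.525), and -0.02 (adjusted p = 0.794) without that library. Aen (ENSMUSG00000030609, chr7:78895854-78911209, plus strand), a nuclease active in apoptosis, was 12.7, 15.6 and 19.5 FPKM in the controls and 18.2, 18.6 and 17.0 FPKM with metformin. Its log2 fold change was 0.18 (SE 0.15, interval -0.18 to 0.54, adjusted p = 0.444), and 0.03 (adjusted p = 0.803) without that library. For both genes the groups overlapped.

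**Figure D2:**
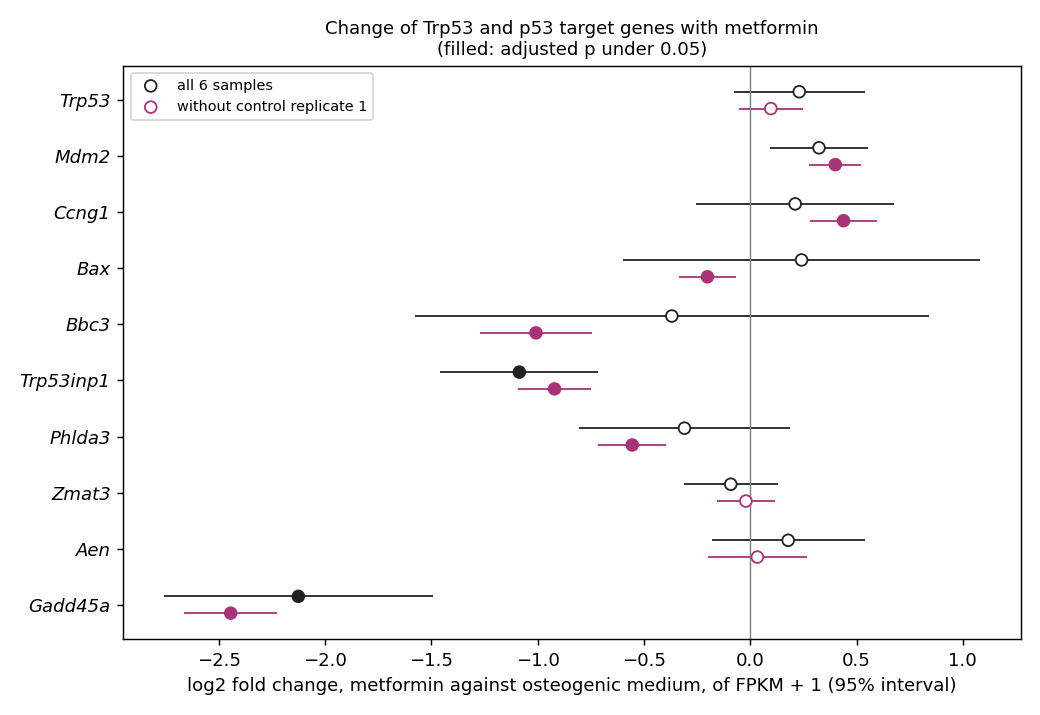
Log2 fold change of FPKM + 1, metformin against osteogenic medium, with the 95% interval (x axis) for each of the 10 genes, with all 6 samples and without control replicate 1. Filled points have an adjusted p under 0.05: Gadd45a and Trp53inp1 are filled in both fits, and 5 more genes are filled without control replicate 1.

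The spread among the controls went with that library. The coefficient of variation of the 10 genes was 9.41 to 62.3% in the controls (median 24.3%, against 17.1% over all tested genes) and 1.74 to 11.2% with metformin (median 2.93%, against 5.47%). Control replicate 1 was the lowest of the 6 samples for 5 of the genes and the highest for 3, together 8 of 10, while it was lowest for 27.9% and highest for 29.5% of all tested genes (57.4% together). Its difference from the mean of the other controls had a median size of 0.59 (log2) over the 10 genes and 0.28 over all tested genes. The 10 genes span a GC content of 38.8 to 65.2%. The GC-rich Bbc3, Bax and Phlda3 were lower in control replicate 1 by -1.92, -1.33 and -0.74 (log2), where the trend over all genes at their GC content was -0.90, -0.79 and -0.73. The AT-rich Ccng1 and Trp53inp1 were higher in it by 0.68 and 0.50, where the trend was 0.34 and 0.38. Gadd45a, with a GC content of 49.8%, was lower by -0.95 where the trend was 0.0026. The part of GC content in these differences was tested only through the corrected fit, in which Gadd45a (-2.18), Trp53inp1 (-1.03) and Phlda3 (-0.41) were lower and Mdm2 (0.25) was higher.

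**Figure D3:**
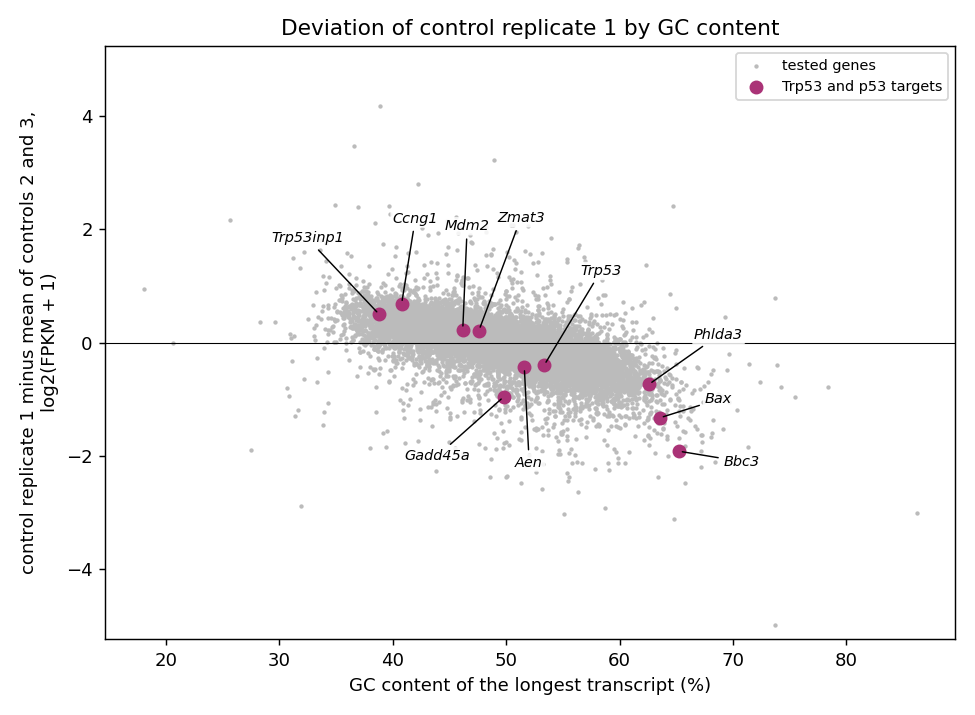
Difference of control replicate 1 from the mean of control replicates 2 and 3 on the log2(FPKM + 1) scale (y axis) against the GC content of the longest transcript in percent (x axis), for tested genes in grey and the 10 p53 genes in colour. The cloud slopes down with GC content (Spearman coefficient -0.668), with Bbc3 lowest among the 10 genes at -1.92 and Ccng1 highest at 0.68.

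Between genes, mean levels per length ran from 15.9 ± 3.42 FPKM (Aen) to 315 ± 85.4 FPKM (Phlda3) in the controls, and from 8.88 ± 0.995 FPKM (Gadd45a) to 253 ± 5.87 FPKM (Ccng1) with metformin. In the controls the order of mean levels was Phlda3, Ccng1, Trp53inp1, Bax, Mdm2, Gadd45a, Zmat3, Trp53, Bbc3 and Aen. The sample values of neighbours were apart only between Ccng1 and Trp53inp1, between Trp53inp1 and Bax, and between Gadd45a and Zmat3. With metformin the order was Ccng1, Phlda3, Bax, Mdm2, Trp53inp1, Trp53, Aen, Zmat3, Bbc3 and Gadd45a. Here only Ccng1 and Phlda3, Mdm2 and Trp53inp1, and Aen and Zmat3 overlapped. Trp53inp1 moved from the third place to the fifth, and Gadd45a from the sixth to the last.

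Among 37 other known p53 targets, 33 were tested, 9 rose and 5 fell (27.3% and 15.2%, beside 13.2% and 9.28% of all tested genes). Their median log2 fold change was 0.12. Without control replicate 1 the counts were 12 and 10, with a median of 0.03 and 23.5% and 20.4% of all tested genes. All 32 genes of the other lists below that were called with 6 samples were called in the same direction without that library. Leaving out metformin replicate 1, 2 or 3 left 3, 3 and 4 that rose. Over all tested genes those fits called 926, 927 and 969 higher, against 1670 with all 6 samples. The 14 that changed went both ways among the growth arrest genes and among the metabolism and stress genes.

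Of 8 growth arrest targets, 3 rose and 2 fell, beside 13.2% and 9.28% of all tested genes. Without control replicate 1 the counts were 3 and 4, beside 23.5% and 20.4%. Btg2, an antiproliferative partner of the deadenylase complex, stood at 39.5 ± 3.62 FPKM in controls and at 102 ± 9.96 FPKM with metformin (log2 1.35, adjusted p = 0.000407, higher). The polo-like kinases Plk2 and Plk3 rose by 0.70 and 0.65 (adjusted p = 0.00158 and 0.0211). Gadd45b, a paralog of Gadd45a, fell from 67.3 ± 2.84 to 32.9 ± 1.94 FPKM, 2.05-fold lower (log2 -1.01, adjusted p = 0.000448). The receptor phosphatase gene Ptprv fell with a log2 fold change of -0.86 (adjusted p = 0.00689) and shares 345 exon bases with Gm10535 on the opposite strand. The third family member, Gadd45g, was not called (61.2, 106 and 94.1 FPKM in controls, 105, 100.3 and 105 FPKM with metformin, log2 0.28, adjusted p = 0.356). Cdkn1a, which encodes the cell cycle inhibitor p21, was 139, 209 and 235 FPKM in the controls and 159, 155 and 148 FPKM with metformin. Control replicate 1 was the lowest sample for Cdkn1a, and its log2 fold change was -0.30 (adjusted p = 0.316) with it and -0.52 (adjusted p = 0.00189) without it. Cdkn1a shares 273 exon bases with AC167363.2 on the opposite strand.

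Of 9 cell death targets, 7 were tested, 3 rose and none fell, beside 13.2% and 9.28% of all tested genes. None fell at an unadjusted p under 0.05 or by voom either (0 and 0 genes). Pidd1, a scaffold of the caspase-2 complex, rose from 4.23 ± 0.456 to 7.20 ± 0.151 FPKM (log2 0.65, adjusted p = 0.00334). Apaf1, the core of the apoptosome, rose by 0.49 (adjusted p = 0.0362), and the death receptor gene Tnfrsf10b by 0.44 (adjusted p = 0.0400). Ei24 and Bid were not called, with log2 fold changes of 0.12 and -0.11 (adjusted p = 0.287 and 0.459). The counts were 4 and 0 without control replicate 1, beside 23.5% and 20.4% of all genes. Perp and Pmaip1 were listed at 0 in all 6 samples.

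Of 5 targets in DNA repair and nucleotide supply, Xpc, the damage sensor of nucleotide excision repair, fell from 8.92 ± 0.639 to 5.22 ± 0.565 FPKM (log2 -0.68, adjusted p = 0.00455). Ercc5 and Polk were not called at -0.28 and 0.27 (adjusted p = 0.0517 and 0.201). None of the 5 rose with all 6 samples, also at an unadjusted p under 0.05 and by voom (0 and 0 genes). Among all tested genes 13.2% rose and 9.28% fell. Without control replicate 1, 1 rose and 2 fell, beside 23.5% and 20.4% of all genes. Polk was at 0.42 (adjusted p = 0.00273) and Ercc5 at -0.27 (adjusted p = 0.0221) in that fit.

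Of 15 targets in metabolism and stress, 13 were tested, 3 rose and 2 fell, beside 13.2% and 9.28% of all tested genes. Sesn1, a sestrin that restrains mTORC1 and limits oxidative stress, fell from 87.1 ± 11.6 to 25.8 ± 0.197 FPKM, 3.38-fold lower (log2 -1.71, adjusted p = 0.000193). Its paralog Sesn2 was not called at 28.5, 36.5 and 44.3 FPKM in controls and 46.7, 48.6 and 47.6 FPKM with metformin (log2 0.40, adjusted p = 0.119). Triap1, an inhibitor of the apoptosome, fell with a log2 fold change of -0.43 (adjusted p = 0.0125). Tigar, which lowers glycolytic flux, Dcxr, a carbonyl reductase, and Epha2, an ephrin receptor, rose by 0.43, 0.42 and 0.42 (adjusted p = 0.0279, 0.0143 and 0.0482). Ak1 was not called (log2 0.12, adjusted p = 0.541). The counts were 4 and 4 without control replicate 1, beside 23.5% and 20.4% of all genes.

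**Figure D4:**
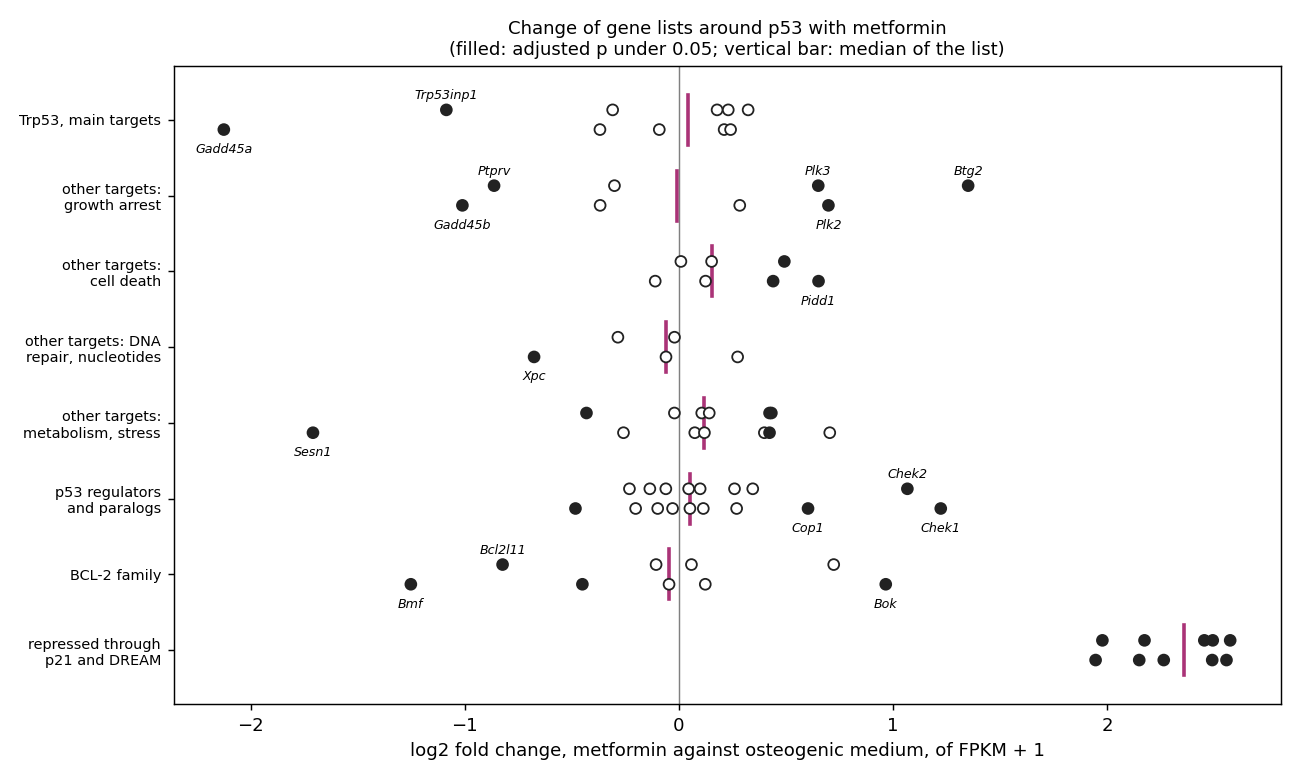
Log2 fold change of FPKM + 1, metformin against osteogenic medium (x axis), for each tested gene of the p53 lists (rows), filled where the adjusted p is under 0.05, with a bar at the list's median. The 10 genes repressed through p21 lie between 1.95 and 2.58, apart from the other lists, whose medians lie between -0.06 and 0.15.

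Of 19 regulators and paralogs of p53, 17 were tested, 3 rose and 1 fell (17.6% and 5.88%, beside 13.2% and 9.28% of all tested genes), with a median log2 fold change of 0.05. The checkpoint kinase genes Chek1 and Chek2, whose products phosphorylate p53, rose from 0.768 ± 0.157 to 3.12 ± 0.0465 FPKM (log2 1.22, adjusted p = 0.00036) and from 3.23 ± 0.563 to 7.83 ± 0.454 FPKM (log2 1.07, adjusted p = 0.00111). Cop1, another ubiquitin ligase for p53, rose by 0.60 (adjusted p = 0.00914), with Gm6206 99.7% identical over 2202 bases. Sirt1, a deacetylase of p53, fell with a log2 fold change of -0.48 (adjusted p = 0.0388). Kat5 and Daxx were not called at -0.14 and -0.20 (adjusted p = 0.402 and 0.310), and were lower at -0.23 and -0.33 (adjusted p = 0.0226 and 0.00974) without control replicate 1. Cdkn2a, which encodes p16INK4a and p19ARF, was listed at 0 in all samples. The counts were 5 and 3 without control replicate 1 (beside 23.5% and 20.4% of all genes), and 2 genes in all changed without metformin replicate 3. Over all tested genes, leaving out metformin replicate 3 gave 969 higher and 526 lower, against 1670 and 1177 with all 6 samples.

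Of 11 relatives of Bax and Bbc3 in the BCL-2 family, 9 were tested, 1 rose and 3 fell (11.1% and 33.3%, beside 13.2% and 9.28% of all tested genes). Bmf and Bcl2l11 (BIM), BH3-only activators of cell death, fell from 3.85 ± 0.126 to 1.04 ± 0.158 FPKM (log2 -1.25, adjusted p = 0.000274) and from 5.41 ± 0.148 to 2.62 ± 0.0863 FPKM (log2 -0.82, adjusted p = 0.000549). Mcl1, a survival factor, fell with a log2 fold change of -0.45 (adjusted p = 0.0224). Bok, a pore-forming relative of Bax, rose by 0.97 (adjusted p = 0.0312). Its controls were 20.3, 40.1 and 36.6 FPKM, and without control replicate 1 the value was 0.67 (adjusted p = 0.000407). Bcl2l1 and Bak1 were not called at 0.06 and 0.72 (adjusted p = 0.902 and 0.120). Without control replicate 1 they were -0.28 and 0.37 (adjusted p = 0.0183 and 0.00567), so that the sign of Bcl2l1 turned. In that fit 3 rose and 5 fell, beside 23.5% and 20.4% of all genes, and the median moved from -0.05 to -0.26. Leaving out any 1 metformin replicate left 2 that changed. Over all tested genes those fits called 926 to 969 higher and 486 to 526 lower, against 1670 and 1177 with all 6 samples.

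The 10 cell cycle genes that p53 is known to repress through p21 and the DREAM complex all rose, with a median log2 fold change of 2.36. Among all tested genes 13.2% rose. Like the other lists, this one was chosen with earlier results of these data known, so the count is not an independent result. Foxm1, a transcription factor of the G2 phase, rose from 3.87 ± 0.417 to 28.0 ± 1.23 FPKM, 7.23-fold (log2 2.58, adjusted p = 6.43e-05). The mitotic kinase gene Plk1 rose from 4.28 ± 1.69 to 29.0 ± 1.21 FPKM (log2 2.56, adjusted p = 0.00055). The cyclin genes Ccna2 and Ccnb1 rose by 2.49 each (adjusted p = 0.000206 and 0.000305). Ccna2 shares 510 exon bases with Exosc9 on the opposite strand, and Ccnb1 has a copy, Ccnb1-ps, 99.2% identical over 1287 bases. None of the 10 fell, where 9.28% of all tested genes did, and none fell at an unadjusted p under 0.05 or by voom (0 and 0 genes). All 10 rose without control replicate 1 as well (median 2.46, beside 23.5% of all genes).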

How the data were processed

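Total RNA of MC3T3-E1 cells was sequenced from TruSeq libraries, with 3 samples per group. The authors deposited a single table of 54532 genes with 6 sample columns and no other per-sample columns. Its unit is not named, but multiplying the deposited FPKM values by gene length gave, within each sample, only multiples of a fixed step (100% of values above 0, tolerance 0.01), and hence the reads. The intervals printed are 95% intervals of the limma fit and rest on the spread between samples. The submitters' processing notes name Bowtie 0.12.2, mm8 and mm9. The table's coordinates were those of GENCODE M21 on GRCm38 for 53499 genes, including all 10 described. The counting tool and strand setting are not given in the sources used here.

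Genes with a mean of at least 0.5 FPKM were tested with limma 3.58.1 (R 4.3.3, trend, two-sided) on log2(FPKM + 1), a scale that understates changes of low genes, with Benjamini-Hochberg adjustment and a threshold of 0.05. The fit was also run on simulated reads, whose outcome is not reported here. Those reads had no library set apart and no trend with GC content, so they could not test how the fit handles control replicate 1. The same fit was repeated with 0.1 added in place of 1, with values scaled by total reads, with every gene kept, with at least 10 reads required in every sample, with voom on the recovered reads, with a replicate block, with a GC spline per library (5 degrees of freedom), with both, and with each sample left out. Voom without control replicate 1 was added after seeing the data. Overlapping exons came from GENCODE M21 and copies of at least 95% identity over 200 bases from BLAST+ 2.17.0. Promoters came from RefSeq (GRCm38.p6). Trp53inp1 and Zmat3 had no entry.

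The 10 genes and the lists were chosen with earlier results of these data known. All 10 genes were named. From each other list, called genes were named (at most the 4 with the largest change per direction) and the 2 genes not called with the highest mean FPKM, and for Trp53 the 3 genes nearest in pattern, of which the third is not reported here.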

Additional observations from a re-analysis of the deposited data

How the results depend on the processing

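Gadd45a and Trp53inp1 were called lower in all 15 alternatives (adjusted p up to 0.0145 and 0.0265), and all 10 genes repressed through p21 and DREAM were called higher in every one run. Trp53, Zmat3 and Aen were called in none. The calls of Mdm2, Ccng1, Bax, Bbc3 and Phlda3 changed without control replicate 1, and those of Mdm2 and Phlda3 also with it under other settings. The cause was not tested. With each sample left out in turn, 0 to 2 of the 10 p53 genes were higher and 2 to 5 lower, with 2 and 5 without control replicate 1, and voom without that library also gave 2 and 5. One gene, Mdm2, was higher (1 gene) with at least 10 reads in every sample, with voom and with GC correction, and Phlda3 was lower with GC correction (adjusted p = 0.00432) and with the block added (adjusted p = 0.0282). The log2 fold change of Bax ran from -0.20 without control replicate 1 (reversed, also -0.20 by voom) to 0.48 without control replicate 3. That of Bbc3 ran from -1.01 without control replicate 1 (-1.07 by voom) to 0.043 (reversed, adjusted p = 0.959) without control replicate 3. Over all genes 1670 were higher and 1177 lower, with 926 to 2974 and 486 to 2587 when a sample was left out (highest without control replicate 1, 926, 927 and 969 higher and 486, 505 and 526 lower without metformin replicates 1, 2 and 3, with 738 lower without control replicate 2). The lower count was 2433 with GC correction and 1888 with GC correction and the replicate block. Other p53 targets higher numbered 4 without the filter and 3 to 12 with a sample left out, and those lower 8 with GC correction, with or without the block, and 4 to 10 with a sample left out. Changed regulators numbered 2 to 8 and changed BCL-2 family genes 2 to 8 with a sample left out, both highest without control replicate 1, and lowest without metformin replicate 3 and without any 1 of the metformin replicates. Samples with the same replicate number did not deviate together (correlations -0.053, 0.00027 and -0.055), so the numbers were not taken as pairs. A replicate block gave 1161 genes higher and 698 lower, with 5 other p53 targets higher and Gadd45a (adjusted p = 0.00233) and Trp53inp1 (adjusted p = 0.0130) still lower. Scaling by total reads moved the median of all genes by -0.025 (log2) and GC correction by -0.054.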
